A study of Homo sapiens with 6 samples.

Results

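The clustered histone genes are the protein-coding genes of the 4 histone gene clusters, named HIST1 to HIST4 in the count table. They were taken by biotype and by symbol, and no measured value entered that rule. The family itself was chosen with earlier results of these data known. The table holds 71 such genes among 58735, with 6 for histone H1, 17 for H2A, 18 for H2B, 15 for H3 and 15 for H4. HIST1 on chromosome 6 holds 55 of them, HIST2 on chromosome 1 holds 12, HIST3 on chromosome 1 holds 3, and HIST4 on chromosome 12 holds 1. RNA came from UE7T-9, a mesenchymal stem cell line from human bone marrow, in 3 libraries of control cells, with the genotype given as WT, and 3 libraries of UE7T-9 SRRM4 KO cells. The KO cells had received a lentiviral CRISPR vector against SRRM4, a splicing regulator, were selected with puromycin and were cloned from single cells, so the group is 1 line. The methods say that UE7T-9 cells carrying a Cas9 lentivirus went into further experiments, without saying whether the control cells were such cells. The discussion of the study counts lentivirus among possible influences on the control cells. The study describes the SRRM4 protein as reduced and not absent in the KO line. SRRM4 had 0 counts in all 6 libraries, so the counts do not check the knockout. No label says that the 3 libraries of a group came from separate cultures, and the p-values therefore measure only the spread between these libraries.

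Most histone protein is made in S phase, when newly copied DNA is packed into chromatin, from the genes of these clusters. H2A, H2B, H3 and H4 form the core particle of the nucleosome, and H1 binds the DNA that links the particles. The mRNAs of these genes are unusual: they have no introns and normally end just after a short stem-loop instead of in a poly(A) tail. The stem-loop is bound by SLBP, and the U7 snRNP guides the cut that follows it. Some of the genes also give longer RNAs that run past the stem-loop and carry a poly(A) tail, among them HIST1H1C, HIST1H2AC, HIST1H2BC, HIST1H2BD, HIST1H2BK, HIST1H4H and HIST2H2BE. Libraries made for mRNA with a poly(A) tail see mainly this form. The study gives its assay as non-stranded mRNA-seq, and how mRNA was selected is not given in the sources used here.

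The stem-loop was searched as 16 bases, an arm of 6 bases that begins with GG, a loop of 4 bases that begins with TT, and the exact reverse complement of the arm, on the sense strand after the stop codon of the annotated coding transcripts. It was found in 30 of the 71 genes, 35 of which had no annotated sequence after the stop codon to search. Of all 19085 protein-coding genes with enough annotated sequence, the members among them included, 0.424% held it. Only 4 forms occurred, shown here because they are what the members share at their 3′ ends, with the paired arms in capitals and the loop in lower case.
HIST1H2AC (also HIST2H2BE, HIST3H2A and 14 others): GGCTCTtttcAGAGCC
HIST1H2BC (also HIST1H2BD, HIST1H2BF, HIST1H3G and HIST3H3): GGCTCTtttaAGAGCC
HIST1H4H (also HIST4H4, HIST1H4B, HIST1H4E and HIST1H4J): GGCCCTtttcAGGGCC
HIST1H4I (also HIST2H4A and HIST2H4B): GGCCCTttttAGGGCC
The 8 H4 genes had GGCCCT in the first arm, and the 22 genes of the other core classes had GGCTCT. In GRCh38 the stem-loop of HIST1H2AC lies at chr6:26124669-26124684 on the plus strand, 43 bases after the stop codon, and the annotated transcript runs 1114 bases beyond it. That of HIST1H2BC lies at chr6:26123472-26123487 on the minus strand, that of HIST1H4H at chr6:26285131-26285146 on the minus strand, and that of HIST1H4I at chr6:27139654-27139669 on the plus strand. In 35 of the 71 genes, HIST1H2BK and HIST1H1C among them, the annotation stops at the stop codon, and the stem-loop could not be searched.

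Many H2A and H2B genes stand head to head and share the DNA between their start sites. Such pairs, with starts at most 500 bases apart, numbered 11. The promoter of HIST1H2AC from RefSeq (GRCh38.p14, chr6:26123922-26124221, plus strand) spans the DNA between HIST1H2AC and HIST1H2BC, whose starts lie 219 bases apart. The promoter of HIST1H2BK (chr6:27146806-27147105, minus strand) covers most of the DNA between HIST1H2BK and HIST1H2AH, whose starts lie 331 bases apart. Both are shown because both partners fell in the first pair, and the partners of the second stood far apart in level. Capitals mark 3 motifs on either strand, overlapping copies included: the CCAAT box, the TATA box as TATAAA, and the octamer ATTTGCAT.
HIST1H2AC: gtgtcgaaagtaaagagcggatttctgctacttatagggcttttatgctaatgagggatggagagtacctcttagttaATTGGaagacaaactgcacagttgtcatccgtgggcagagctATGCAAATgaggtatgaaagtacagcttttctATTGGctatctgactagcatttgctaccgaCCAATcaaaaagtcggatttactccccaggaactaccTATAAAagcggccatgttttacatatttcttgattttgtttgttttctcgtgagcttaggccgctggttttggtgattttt
HIST1H2BK: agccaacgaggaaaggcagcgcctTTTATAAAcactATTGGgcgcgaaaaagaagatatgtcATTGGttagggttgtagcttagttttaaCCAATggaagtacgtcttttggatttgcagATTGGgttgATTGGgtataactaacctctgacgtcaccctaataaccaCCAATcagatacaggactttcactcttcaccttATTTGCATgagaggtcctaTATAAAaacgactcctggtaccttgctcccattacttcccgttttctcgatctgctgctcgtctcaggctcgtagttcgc
A promoter of 300 bases (250 before the start and 50 after it) was matched for 66 of the 71 genes. CCAAT was present in 56 of them, against 34.6% of all 35116 promoters, and TATAAA in 45, against 11.5%. The octamer was present in 14 of 18 H2B and 11 of 16 H2A promoters and in none of the 32 others, against 1.77% of all promoters. CCAAT was present in 3 of the 13 H4 promoters. Head-to-head genes have overlapping windows, so these counts are not independent.

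The clustered histone genes took few counts. They summed to between 0.0158% and 0.0169% of the counts of a control library and between 0.0111% and 0.0114% of those of a KO library, where library totals ran from 21496117 to 23868323 counts. Levels are given as CPM, the counts scaled to library totals with TMM factors. Where a library had 0 counts, counting error alone leaves room for 3 counts, which is 0.123 to 0.139 CPM. Of the 71 genes 56 had a count in at least 1 library, and 15 had none. The filter on low counts kept 18, and these held 97.5% of all histone counts. The 5 highest genes alone, HIST1H2BK, HIST1H1C, HIST2H2BE, HIST1H4I and HIST1H2AC, held 78.8%. Levels were modest: 16 of the 18 genes kept lay below the median of all tested genes, 21.1 CPM, and HIST1H2BK and HIST1H1C lay above it. The 5 H1 genes besides HIST1H1C were all left out by the filter.

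**Figure D1:**
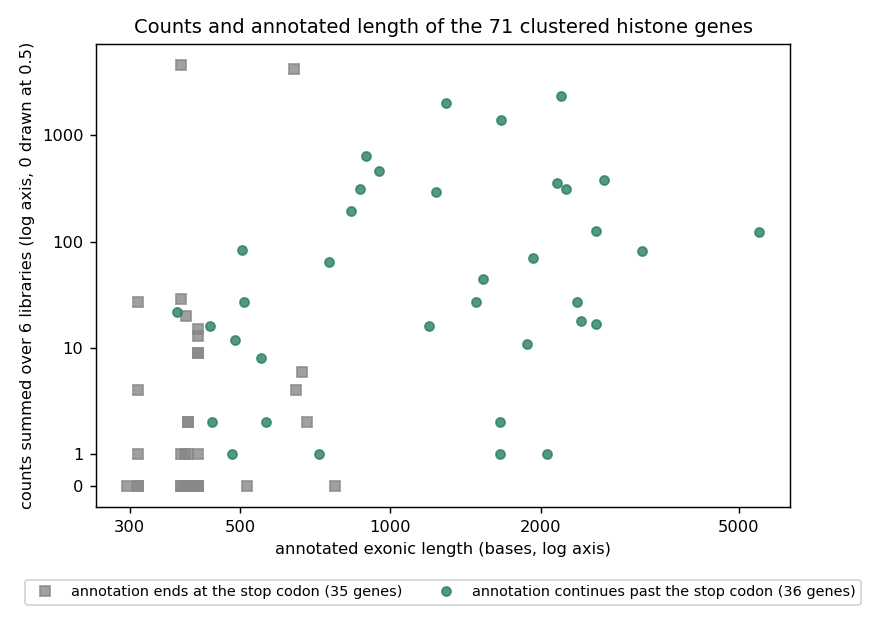
Counts summed over the 6 libraries (vertical, log axis, 0 drawn at 0.5) against the annotated exonic length in bases (horizontal, log axis) for the 71 clustered histone genes. Squares are genes whose annotation ends at the stop codon and circles those whose annotation continues; the squares lie at 29 counts or fewer except HIST1H2BK and HIST1H1C, and every gene at 0 is a square.

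The genes with counts were also those with longer annotated RNAs, as the plot of counts against length shows. Annotated sequence past the stop codon was present in 16 of the 18 genes kept, in 20 of the 38 that had counts but were not kept, and in none of the 15 at 0. The median exonic length was 1481, 484.5 and 393 bases in these sets. At least 100 annotated bases beyond the stem-loop were found for 11 of the 18, 10 of the 38 and none of the 15. An AATAAA, the most common poly(A) signal, lay in the last 50 bases of a transcript in 10, 8 and 0 genes. The exceptions were the 2 most abundant genes. HIST1H2BK (381 bases) and HIST1H1C (642 bases) are annotated as the coding sequence alone. Reads outside the annotated exons are not counted, so the length of the annotation and the level of the RNA cannot be told apart here.

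In SRRM4 KO cells the summed level of the clustered histone genes was lower. It was 162.2, 162.2 and 173.6 CPM in control replicates 1 to 3 and 109.0, 110.5 and 111.7 CPM in KO replicates 1 to 3. The groups did not overlap, and the means were 166.0 ± 6.57 CPM and 110.4 ± 1.36 CPM (SD, n = 3), a difference of -55.6 CPM. In bulk RNA, fewer cells with the RNA and less RNA per cell cannot be told apart. Of the 18 genes tested, 10 fell and 0 rose at an adjusted p under 0.05 (edgeR quasi-likelihood, Benjamini-Hochberg adjusted over 15341 genes). At this threshold 20.9% of all tested genes were lower, 20.7% were higher and 41.6% were one or the other. No member was higher at an unadjusted p under 0.05 either, and DESeq2 gave 9 lower and 0 higher. With a log2 fold change below -1 required as well, 5 of the 18 were lower, where the share of all tested genes was 7.14%; 0 were higher, where the share was 5.45%. These 5 were HIST1H2AC, HIST1H2BC, HIST1H3E, HIST1H4H and HIST4H4, and a test against the fold threshold itself (glmTreat) kept 3 of them, without HIST1H3E and HIST4H4. The fitted change was below 0 in 16 of the 18 genes, and in 7744 of all 15341 tested genes. The median log2 fold change was -0.94 against -0.01 for all tested genes. Control and KO libraries were separate in 12 of the 18, and in 51.8% of all tested genes. HIST1H2BC, HIST4H4, HIST1H2BN, HIST1H2AI and HIST2H2BF reached the filter level in too few KO libraries and were kept through the control libraries. Genes kept in this way lean towards a fall, and they count in the values of this paragraph. The count of 10 was between 7 (without control replicate 2) and 10 when any 1 library was dropped, and 8 without control replicate 1, which had 22403 genes with a count against 20127 to 20674 in the other 5 libraries.

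**Figure D2:**
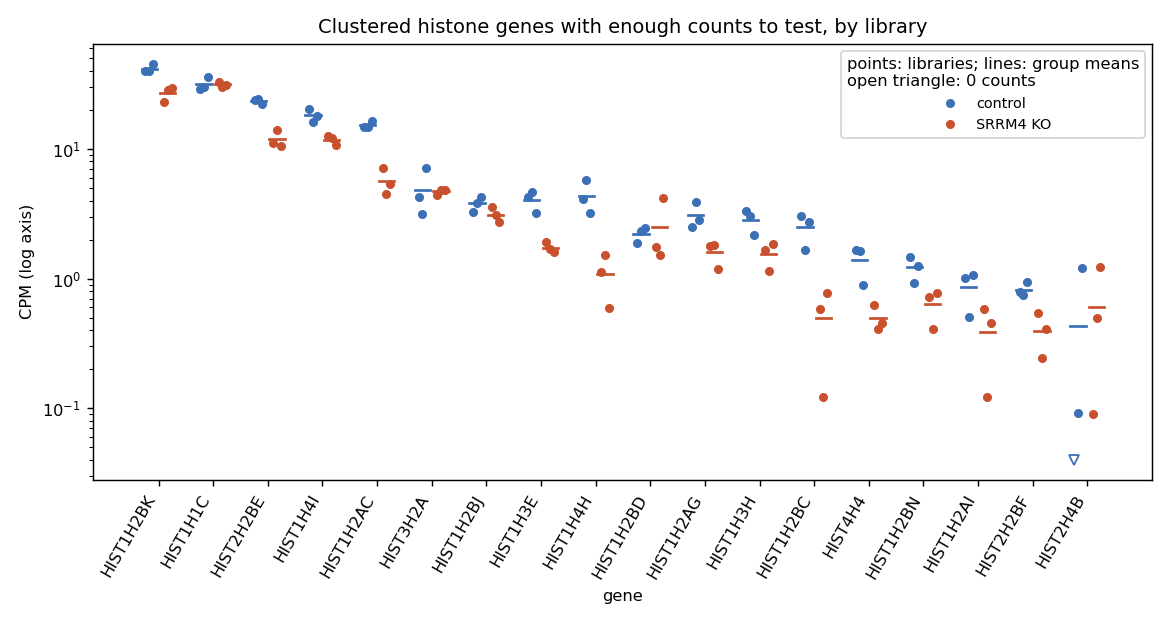
CPM in each library (vertical, log axis) of the 18 clustered histone genes tested, ordered by mean level. Points are libraries, lines are group means, and the open triangle is a library with 0 counts; the KO points lie below all control points in 12 genes, from HIST1H2BK at the upper end to HIST2H2BF at the lower.

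For the clustered H1 genes the control and KO libraries overlapped. HIST1H1C, which encodes the linker histone H1.2, had 630, 646 and 794 counts in control replicates 1 to 3 and 730, 737 and 684 in the KO libraries. Its levels were 31.5 ± 3.53 and 31.4 ± 1.28 CPM (SD, n = 3). The fitted log2 ratio of KO to control was -0.01 ± 0.11 (standard error), with an edgeR adjusted p = 0.963. HIST1H1E had between 5 and 21 counts in a library, the most of the H1 genes left out by the filter. Summed over the 6 H1 genes, the level was 32.1 ± 3.34 CPM in control and 31.9 ± 1.06 CPM in KO cells (SD, n = 3). The difference between HIST1H1C and the core histone genes was not tested.

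H2B held the largest part of the histone counts, 76.9 ± 2.92 CPM in control and 46.8 ± 4.12 CPM in KO cells (SD, n = 3). HIST1H2BK, the most abundant member in control and second to HIST1H1C in each KO library, had 871, 852 and 1011 control counts against 514, 695 and 646 KO counts, and each KO library lay below each control library. It went from 41.7 ± 3.17 to 27.0 ± 3.42 CPM (SD, n = 3), or -0.63 ± 0.12 on the log2 scale (standard error; edgeR adjusted p = 0.00054). HIST2H2BE, on chromosome 1, had 512, 525 and 492 control counts against 247, 343 and 230 KO counts. Its level in the KO cells was 11.9 ± 1.94 CPM against 23.3 ± 1.18 CPM (SD, n = 3), or -0.97 ± 0.14 on the log2 scale (standard error; edgeR adjusted p = 5.21e-05). HIST1H2BC showed the largest fitted fall of the tested genes. It had 66, 36 and 61 control counts against 13, 3 and 17 KO counts, 5.05-fold lower, or -2.34 ± 0.525 on the log2 scale (standard error; edgeR adjusted p = 0.0022). Its value ran from -2.83 to -1.87 when any 1 library was dropped. The other 4 tested H2B genes did not pass. HIST1H2BJ had 60 to 95 counts in a library and a log2 fold change of -0.28, and HIST1H2BD had 41, 50 and 55 control counts against 39, 37 and 92 KO counts, where replicate 3 alone was above the control range. HIST1H2BN and HIST2H2BF did not overlap between the groups, at 20 to 32 against 10 to 17 counts and 16 to 21 against 6 to 12 counts, with adjusted p = 0.126 and 0.137.

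H2A was lower in the KO cells as a sum, at 12.9 ± 1.33 CPM against 24.6 ± 2.68 CPM (SD, n = 3). HIST1H2AC took most of it in control. It had 322, 318 and 367 control counts against 159, 109 and 119 KO counts, so that the highest KO library stood well under the lowest control. The level was 15.4 ± 0.95 CPM in control and 5.67 ± 1.35 CPM in KO cells (SD, n = 3), or -1.44 ± 0.18 on the log2 scale (standard error; edgeR adjusted p = 1.03e-05). HIST1H2AG had 54, 84 and 63 control counts against 40, 44 and 26 KO counts, without overlap, and its log2 fold change was -0.94 (adjusted p = 0.0282, edgeR). It was not past the threshold without control replicate 2 (adjusted p = 0.144) or without KO replicate 3 (adjusted p = 0.0918). HIST3H2A had 93, 68 and 159 control counts against 99, 118 and 106 KO counts, and its groups overlapped. Its log2 fold change was -0.05, and ran from -0.28 to 0.33 when any 1 library was dropped. HIST1H2AI had 11 to 24 counts in a control library and 3 to 13 in a KO library, a log2 fold change of -1.17 that did not pass (adjusted p = 0.144, edgeR); 57.7% of its 100-base stretches also occur in transcripts of other genes, mostly HIST1H2AJ.

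**Figure D3:**
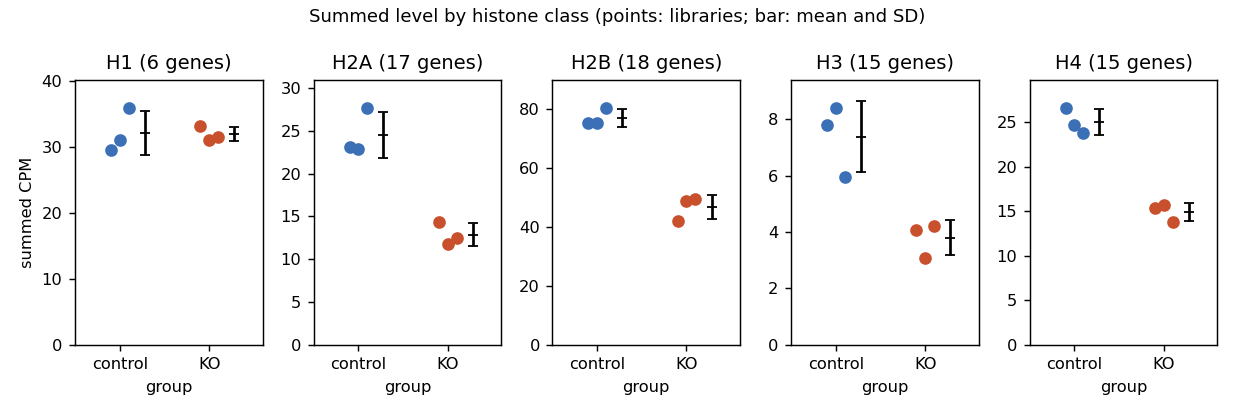
Summed CPM (vertical, from 0) of the genes of each histone class in the control and KO libraries; points are libraries, and the black bars are the group mean and SD (n = 3). The groups overlap for H1 and are separate for H2A, H2B, H3 and H4.

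Of the H3 and H4 genes 6 were tested, and 5 of these fell, where 20.9% of all tested genes were lower. HIST1H3E had 92, 100 and 71 control counts against 43, 41 and 35 KO counts, or -1.21 ± 0.28 on the log2 scale (standard error; edgeR adjusted p = 0.00261). HIST1H3H had 72, 65 and 48 control counts against 37, 28 and 41 KO counts. Its log2 fold change of -0.86 was at the edge of the threshold (adjusted p = 0.0477, edgeR; from 0.0315 to 0.154 over the alternatives, and past it in 6 of 13). HIST1H4I, the most abundant H4 gene, had 441, 349 and 403 control counts against 279, 296 and 235 KO counts. It fell from 18.2 ± 2.08 to 11.8 ± 0.976 CPM (SD, n = 3), or -0.63 ± 0.14 on the log2 scale (standard error; edgeR adjusted p = 0.00217). HIST1H4H had 89, 124 and 71 control counts against 25, 37 and 13 KO counts, a 3.99-fold lower level in KO cells (edgeR adjusted p = 0.000399). HIST4H4, alone in its cluster on chromosome 12 from 14767999 to 14771131, had 36, 35 and 20 control counts against 14, 10 and 10 KO counts. Its log2 fold change was -1.48 (adjusted p = 0.0228, edgeR), and it was not past the threshold without control replicate 1 or 2 or without KO replicate 2 or 3, where the adjusted p ran from 0.0674 to 0.093. By cluster, 8 of 13 tested genes fell in HIST1, 1 of 3 in HIST2, 0 of 1 in HIST3 and 1 of 1 in HIST4, and outside HIST1 these counts are too few to set against the 20.9% of all tested genes.

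**Figure D4:**
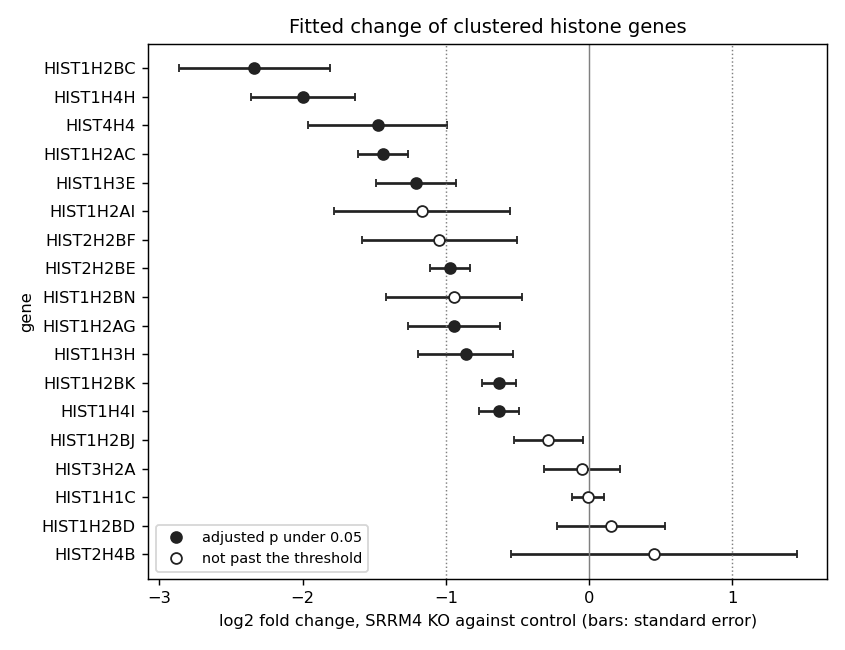
Log2 fold change of SRRM4 KO against control (horizontal; bars are the standard error, dotted lines mark -1 and 1) for the 18 clustered histone genes tested. Filled points passed an adjusted p of 0.05; the 10 filled points all lie below 0, from HIST1H2BC at -2.34 to HIST1H4I and HIST1H2BK at -0.63.

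Per length, HIST1H2BK stood first in both groups, whereas by CPM HIST1H1C was above it in KO cells. In control, HIST1H2BK stood at 109.4 RPKM (CPM divided by the annotated exonic length in kilobases), HIST1H1C at 49.1, HIST1H4I at 14.1, HIST2H2BE at 10.6 and HIST1H2AC at 9.20. In KO cells the RPKM values were 70.8, 48.9, 9.11, 5.41 and 3.40, and HIST3H2A, at 5.25, stood between HIST2H2BE and HIST1H2AC. HIST2H2BE and HIST3H2A in KO cells did not differ beyond their spread. The 7 genes known from the literature for RNA with a poly(A) tail were all among the 18 tested, and 5 of them fell, beside 10 of all 18 and 20.9% of all tested genes. Their sum went from 120.9 ± 5.95 to 80.0 ± 2.22 CPM (SD, n = 3), so they held most of the histone signal in both groups.

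Head-to-head partners ranged from near in level to far apart. HIST1H2BK had 4589 counts over the 6 libraries and its partner HIST1H2AH had 1. HIST2H2BE had 2349 and HIST2H2AC had 20, and HIST3H2A had 643 and HIST3H2BB had 27. The nearest were HIST1H2BJ with 463 and HIST1H2AG with 311, and HIST1H2BG with 45 and HIST1H2AE with 27. The H2B partner had more counts in 7 of the 10 pairs with a count, and the H2A partner in 3. Both partners could be tested in 2 pairs. In the first, HIST1H2AC (1394 counts in all) and HIST1H2BC (196) both fell. In the second, HIST1H2AG (311) fell and HIST1H2BJ (463) did not pass; the difference between them was not tested. HIST1H2AH is annotated only as its coding sequence of 387 bases and HIST2H2AC as 390 bases.

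The 53 genes below the filter gave little to compare. They had 468 counts in all, 233 of them in control, and at most 21 in any library. The 5 with the most counts over all libraries were HIST1H1E (65) and HIST1H2BG (45), followed by HIST1H2BO (29) and, with 27 each, HIST1H2AE and HIST1H4E, level with HIST3H2BB and HIST1H4K. Of the 38 with a count, 21 had 10 or fewer over all libraries, and 9 had a single count. When the 38 were tested without the filter, 0 were higher and 0 lower at an edgeR adjusted p under 0.05 (0 and 1 at an unadjusted p under 0.05). Of all 12064 genes with a count below the filter, 0.671% were higher and 1.26% lower in that fit. DESeq2 also gave 0 and 0, with an adjusted p for 17 of them. Control and KO libraries were separate in 2 of the 38, in opposite directions, and in 8.41% of all genes with a count below the filter. HIST1H2BF had 2, 13 and 1 control counts and 0 in each KO library, next to the threshold without the filter (edgeR adjusted p = 0.0501), while HIST2H2AC had 2, 1 and 0 control counts against 3, 5 and 9 KO counts (edgeR adjusted p = 0.346). Summed over libraries, 18 of the 38 had more counts in control, 18 had more in KO cells and 2 had the same number. In 10 genes the counts were in control libraries only, and in 7 they were in KO libraries only.

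Some members cannot be told apart by sequence. In HIST2H2AA3, HIST2H2AA4, HIST2H3A, HIST2H3C, HIST2H4A and HIST2H4B at least 94.9% of the 100-base stretches occur in transcripts of another gene, in each case mostly its copy. Counting overlaps with neighbours and HIST1H4J with HIST1H4K, 16 of the 71 share more than 50% in this way. HIST2H4B, which was tested while its 5 companions named here were not, had 0, 2 and 27 control counts against 2, 12 and 27 KO counts, so the spread within each group was wider than the difference between them. HIST2H4A had at most 4 counts in a library. HIST2H2AA3 had at most 5, and HIST2H2AA4, HIST2H3A and HIST2H3C had at most 1. The treatment of reads that fit more than 1 gene is not given in the sources used here, and the libraries do not tell strands apart. HIST2H4B overlaps HIST2H3A, HIST1H2BN overlaps HIST1H2AK, and HIST1H2BD and HIST2H2BF overlap other genes as well. The counts of these genes are uncertain. None of the 10 genes that fell overlaps another gene of the table, and HIST1H2BK shares 28.4% of its 100-base stretches with other genes, mostly H2BFS.

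Among the histones outside the clusters more genes rose than fell. In the list of replication-independent histones, single genes outside the clusters that are largely not tied to S phase, 6 of 11 tested rose (54.5%, against 20.7% of all tested genes) while 1 fell. Of all tested genes 20.9% were lower. H2AFX is an exception as background, since its RNA can also end in a stem-loop. H3F3B, which encodes H3.3, rose from 385.5 ± 11.0 to 803.2 ± 16.4 CPM (SD, n = 3), and H2AFZ, which encodes H2A.Z, from 284.4 ± 12.0 to 487.3 ± 12.7 CPM. H2AFX, whose product marks DNA breaks when phosphorylated, rose by a log2 fold change of 1.29. H1F0, the linker histone of resting and differentiated cells, fell by 1.10 on the log2 scale, with means of 80.1 CPM in control and 37.4 CPM in KO cells, and H1FX, another linker histone, rose by a log2 fold change of 0.48. The sum of these 12 genes was 1341 ± 28.1 CPM in control and 2118 ± 31.2 CPM in KO cells (SD, n = 3), well above that of the clustered genes in both groups.

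Genes of S phase rose as well. Of 20 tested, 18 rose (90.0%, against 20.7% of all tested genes) and 0 fell (edgeR; 19 and 0 at an unadjusted p under 0.05, and 18 and 0 with DESeq2), and the list had a median log2 fold change of 0.88. PCNA, the sliding clamp of DNA replication, went from 184.1 ± 9.32 to 420.9 ± 10.6 CPM (SD, n = 3), and MCM4, of the replicative helicase, and RRM1, of ribonucleotide reductase, rose by log2 fold changes of 0.80 and 1.01. Histone chaperones, which carry histones to DNA, had 10 of 19 higher and 1 lower, beside 20.7% and 20.9% of all tested genes. Of the 10, 3 rose by more than 2-fold, where the share of all tested genes was 5.45%. The most abundant of them rose by less, NAP1L1 by 0.24, SUPT16H by 0.27 and RBBP7 by 0.49 on the log2 scale, and the largest changes were those of ASF1B (1.51) and CHAF1B (1.52). CABIN1 was the gene that fell (-0.39). What part these genes have in the clustered histone values was not tested.

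For genes that make, process and degrade histone mRNA, the changes that passed the test were under 2-fold. Of the genes for histone gene transcription, 2 of 5 rose, where 20.7% of all tested genes were higher, and 0 fell (3 and 0 at an unadjusted p under 0.05, 2 and 0 with DESeq2). They were CASP8AP2, a partner of NPAT at histone loci, with a log2 fold change of 0.54, and POU2F1, which binds the octamer, with 0.33. The count was 3 without control replicate 1 and 1 without any other single library. NPAT itself, the cyclin E-CDK2 target that activates these genes, was at 0.19 and did not pass. For the processing of the 3′ end, 8 of 16 rose and 0 fell (9 and 0 at an unadjusted p under 0.05, 8 and 0 with DESeq2). Of all tested genes 20.7% rose and 20.9% fell. SLBP, the stem-loop binding protein, rose from 86.8 ± 1.73 to 120.6 ± 5.86 CPM (SD, n = 3; adjusted p = 0.000287, edgeR). SNRPB, a core protein of snRNPs, rose by a log2 fold change of 0.67 and SRRT by 0.34. Without KO replicate 2 the count was 5. Among the genes of histone mRNA translation and decay 6 of 10 rose and 1 fell, beside 20.7% and 20.9% of all tested genes. UPF1 (0.37), LSM4 (0.39) and EXOSC10 (0.38) were among those that rose. The gene of that list that fell was TUT7, which adds uridines to RNA ends, from 43.9 ± 5.05 to 27.5 ± 1.26 CPM (SD, n = 3).

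**Figure D5:**
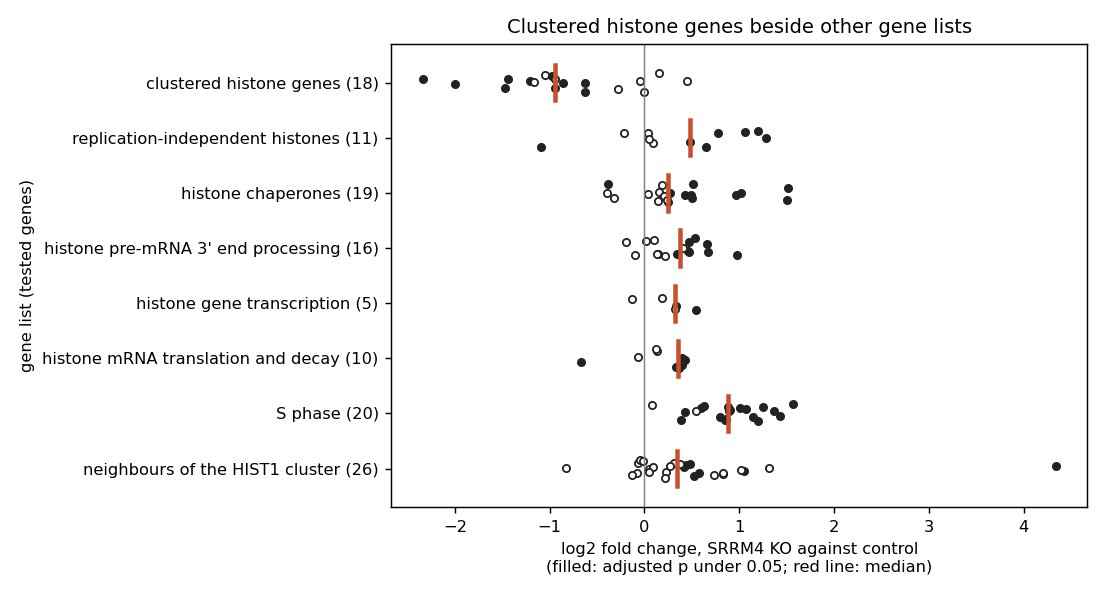
Log2 fold change (horizontal) of each tested gene in the clustered histone genes and in 7 other lists, with the number of tested genes in brackets; filled points passed an adjusted p of 0.05 and red lines are medians. The median of the clustered histone genes is -0.94, and those of the other lists lie between 0.24 and 0.88.

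Values that could move with these results were looked at in the same libraries. Of the 26 tested protein-coding neighbours within 1000000 bases that are not histone genes, 8 rose (30.8%, against 20.7% of all tested genes) and 0 fell (11 and 0 at an unadjusted p under 0.05, 8 and 0 with DESeq2). GMNN, which blocks a new round of replication, rose by a log2 fold change of 1.05, and BTN2A1 and BTN3A2 rose by 0.42 and 0.52. Small RNAs without a poly(A) tail took almost no counts. How reads that fit more than 1 gene were treated is not known here, so 0 counts need not mean that the RNA was absent. Of 20 gene entries 14 had no count in any library, RN7SK included, and their sum ran from 0.65 to 0.81 CPM in control and from 0.23 to 1.6 CPM in KO libraries. RN7SL2 made up most of it, with 9, 15 and 17 control counts against 13, 35 and 5 KO counts. The 19 histone pseudogenes of the clusters summed to 9.01 ± 1.31 CPM in control and 7.96 ± 2.06 CPM in KO cells (SD, n = 3), and the 4 of them tested had a median log2 fold change of -0.02. As for the labelled cell type, all 8 mesenchymal markers were expressed, with 1 higher and 7 lower in KO cells (20.7% and 20.9% of all tested genes) and a sum of 39535 to 43669 CPM in control and 15321 to 17370 CPM in KO libraries. PTPRC and CD3E, which mark blood cells, had at most 2 counts in a library, and PECAM1, CDH5 and EPCAM at most 3. Other markers of these cells had counts. CD14 had 324 to 392 counts in every library and KRT18 had 1647 to 2165. KRT19, an epithelial keratin below the filter, had 10, 9 and 19 control counts and 0 in each KO library (edgeR adjusted p = 0.000232 without the filter). The blood, endothelial and epithelial markers above the filter, CD14, CD34, VWF, KRT18 and CDH1, had edgeR adjusted p from 0.23 to 0.955. The sums of the 3 marker lists were 17.9 to 21.2, 0.941 to 2.18 and 77.0 to 91.8 CPM over the 6 libraries. The part of the changes in mesenchymal markers and KRT19 in the histone values was not tested.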

How the data were processed

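Non-stranded mRNA-seq of 3 control and 3 SRRM4 KO libraries was analysed. The authors deposited raw counts per gene for 58735 genes, and the submitters' processing notes name HISAT2 2.0.5, featureCounts 1.5.0-p3 and DESeq2. Coordinates of all 71 members matched GENCODE release 29 (GRCh38). Samples were grouped by title, and columns were matched to titles. Counts were tested with edgeR 4.0.16 in R 4.3.3 (TMM, filterByExpr, prior count 0.125, quasi-likelihood test, Benjamini-Hochberg adjustment over 15341 genes). Standard errors are the absolute log2 change over the square root of F. The procedure was tested on simulated data.

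The genes and lists were chosen with earlier results of these data known, and the lists get no test of their own. Named are the tested histone genes, the 5 genes below the filter with most counts, near-identical copies, and at most 3 genes per direction of each other list by mean CPM; HIST1H2BF, HIST2H2AC, H1FX, ASF1B, CHAF1B, NPAT, RN7SL2, the head-to-head partners and the marker genes were named after their values were seen. Alternatives were other normalizations and filters, DESeq2 1.42.0, glmTreat, a replicate block, protein-coding genes only, and leaving out each library. An exact permutation test of 3 against 3 libraries cannot go below p = 0.10 and was not used.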

Additional observations from a re-analysis of the deposited data

How the results depend on the processing

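The number of clustered histone genes past the threshold stayed within 1.5 times its value in all alternatives run, at 0 higher and between 7 and 10 lower. Of the 10 genes that fell, HIST1H2BK, HIST2H2BE, HIST1H4I, HIST1H2AC, HIST1H3E, HIST1H4H and HIST1H2BC passed in each alternative in which they could be tested, HIST1H2AG in 11 of 13, HIST4H4 in 9 and HIST1H3H in 6. The test against the fold threshold (glmTreat) called 3 lower genes in place of 5, HIST1H2AC, HIST1H4H and HIST1H2BC, and leaving out single libraries gave 4 to 7. Without scaling, on raw library totals, the difference of the summed level was -49.6 CPM in place of -55.6 CPM, and leaving out single libraries gave -57.5 to -51.8 CPM. HIST2H4B, which did not pass, ran from -0.57 to 3.55 on the log2 scale with single libraries left out. Upper-quartile scaling moved the median of all genes to -0.04, that of the S phase list to 0.85 and that of the chaperones to 0.21.

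The replicate numbers did not pair the libraries: deviations of same-numbered libraries correlated at -0.05, 0.08 and -0.05. A replicate block gave 9 lower histone genes, and 1 higher gene for histone gene transcription, as did upper-quartile scaling and no filter (1 each, in place of 2). With no filter 1 neighbour of HIST1 was lower, and with at least 10 counts in every library the median of the neighbours was 0.23.

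With single libraries left out, the medians ran from 0.24 to 0.33 for histone gene transcription, 0.24 to 0.42 for 3′ end processing, 0.29 to 0.34 for translation and decay, 0.33 to 0.61 for replication-independent histones, 0.23 to 0.31 for chaperones, 0.84 to 0.92 for S phase and 0.27 to 0.37 for the neighbours. The higher genes numbered 1 to 3 for histone gene transcription and 5 to 9 for 3′ end processing; the lower genes numbered 1 to 2 for chaperones and 0 to 1 for the neighbours. The cause of these shifts was not tested. Low counts limit what can be said of the 53 genes below the filter: 15 had no counts, and of the 38 others 0 passed without the filter, with 1 at an unadjusted p under 0.05 (edgeR).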
